A study of Mus musculus with 7 samples.

Results

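The Slco and Slc22a genes encode the organic anion and organic cation transporters of the solute carrier superfamily. The 39 protein-coding genes whose names match these families, 14 Slco and 25 Slc22a, were taken by name from 54532 listed genes. Their RNA was described in livers of old C57BL/6 mice, 3 labelled as given a standard diet after MDL-800 supplementation and 4 labelled as given a standard diet only. MDL-800 activates SIRT6, which removes acyl groups from histones and other proteins at the cost of NAD. Values are FPKM as deposited, in which reads are divided by gene length and by a denominator of the library. The labels used here give no sex, dose or duration, nor whether every library is a mouse of its own, so the p-values rest on the spread among libraries, which may be technical. The question of the comparison is how livers after MDL-800 differed from livers without it.

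Organic anion transporting polypeptides, the products of Slco genes, take up bile acids, bilirubin conjugates, steroid and thyroid hormone conjugates and many drugs from the blood into cells. Products of Slc22a genes include the organic cation transporters, the carnitine and zwitterion transporters and the organic anion transporters, which in the liver sit mainly on the blood-facing side of hepatocytes. From the hepatocyte, ABC transporters export their cargo into bile or back into blood. Several of these uptake genes are known in mice to differ between male and female liver, Slco1a1 as a male-predominant gene and Slco1a4 and Slc22a26 as female-predominant ones.

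Recovered whole reads numbered 17600066 to 19920469 per library. All 6 hepatocyte markers were detected, with Alb, the gene of albumin, at 38820 to 42844 FPKM in MDL-800 livers and 35737 to 62511 FPKM in control livers. MDL-800 liver 2 and control liver 1 held 3514 and 2173 reads from 4 genes of the Y chromosome (Uty, Ddx3y, Eif2s3y, Kdm5d), and the other 5 libraries held 0. Xist, which female cells transcribe from the inactive X chromosome, had 15495 and 18043 reads in MDL-800 livers 1 and 3 and 21104 and 16805 reads in control livers 2 and 4. It had 3 reads in each liver with Y-linked reads and 0 in control liver 3, which thus held neither kind of read. In the livers with Y-linked reads 10 of 11 tested male-biased liver genes lay above, and 13 of 14 female-biased liver genes below, the values of every other library. Serpina1e and Mup20, male-biased, stood at 1395 and 1705 FPKM in MDL-800 liver 2 and 4067 and 4936 FPKM in control liver 1. A1bg and Sult2a1, female-biased, stood at 0.0268 and 0 FPKM in MDL-800 liver 2 and at 0.0287 and 0 FPKM in control liver 1. The summed level of 9 macrophage and Kupffer cell markers ranged from 227.5 to 837 FPKM in MDL-800 livers and from 256 to 2227 FPKM in control livers, and was highest in control liver 2. The 2 lowest sums, 227.5 and 256 FPKM, were those of the livers with Y-linked reads. In both of them 8 of the 9 markers lay below every other library, as did 1453 of 11394 tested genes. The kidney marker Kap was at 2.63 FPKM in control liver 1 and at 0 elsewhere. Of the other listed kidney markers, Lrp2 and Slc34a1 were also highest there, at only 0.099 and 0.074 FPKM. Umod was highest in control liver 3, at 0.051 FPKM, and Slc12a1 was at 0 in every library.

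Of the 39 members, 17 had a mean of at least 1 FPKM over the 7 libraries and were tested. The values of 16 of them are given here. Slco1b2 had a mean level of 245 FPKM, which placed it 263rd among all listed genes. Slc22a26, Slc22a18, Slc22a30, Slco1a1, Slc22a27, Slco2b1, Slc22a7, Slco1a4 and Slc22a23 had means of 76.9, 63.2, 48.2, 33.0, 31.1, 28.6, 21.6, 18.2 and 15.7 FPKM. Slc22a5, Slco2a1, Slc22a28, Slc22a29, Slc22a15 and Slc22a4 had means under 10 FPKM, down to 1.03 FPKM for Slc22a4. The summed level of the 14 Slco genes was 409 ± 194 FPKM (SD, n = 3) in MDL-800 livers and 272 ± 129 FPKM (SD, n = 4) in control livers. That of the 25 Slc22a genes was 459 ± 18.0 FPKM (SD, n = 3) in MDL-800 livers and 510.4 ± 97.3 FPKM (SD, n = 4) in control livers. Both differences were smaller than the larger SD of their groups. By library the Slco sum, which includes Slco1b2, was 302, 633 and 292 FPKM in MDL-800 livers 1, 2 and 3. In control livers 1, 2, 3 and 4 it was 463, 180, 220 and 223 FPKM. MDL-800 liver 2 was thus above control liver 1, and MDL-800 livers 1 and 3 above control livers 2, 3 and 4. For the Slc22a sum the latter livers overlapped. In whole liver, fewer cells of a type and less RNA per cell cannot be told apart.

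**Figure D1:**
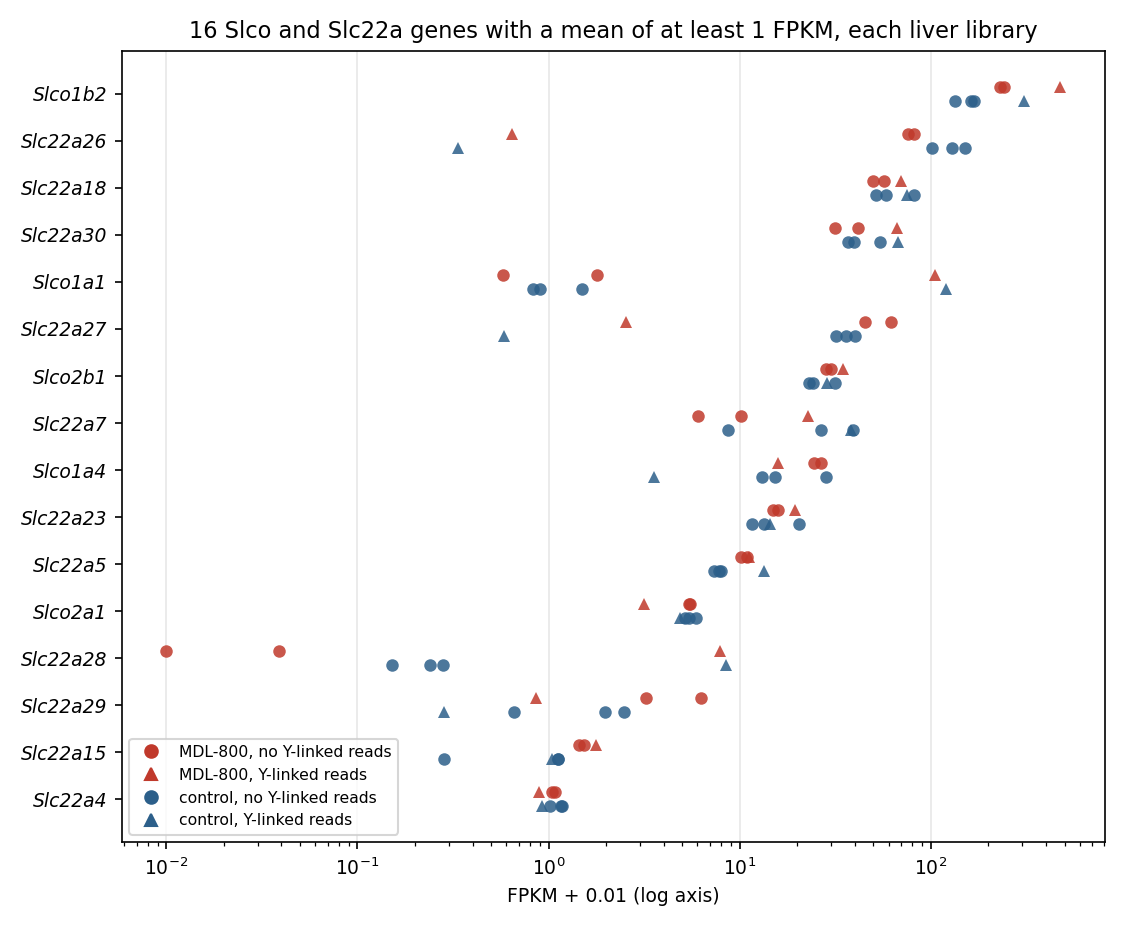
FPKM of 16 tested Slco and Slc22a genes in each liver library on a log axis, after adding 0.01, with genes in order of mean level, MDL-800 in red and control in blue. Triangles mark the libraries with Y-linked reads, which stand apart from the circles for Slco1a1 and Slc22a28 on the high side and for Slc22a26 and Slc22a27 on the low side.

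No member passed limma's test between MDL-800 and control livers (log2 of FPKM + 1, Benjamini-Hochberg adjustment over 11394 genes), and the smallest adjusted p among the 17 was 0.950. Over all tested genes 0% passed at an adjusted p under 0.05. At an unadjusted p under 0.05, 0 of 17 members were reached, against 4.85% of all tested genes. With a term for Y-linked reads in the model 4 of 17 members were reached, against 7.27% of all tested genes, and in the 5 libraries without Y-linked reads 5 of 17, against 5.4%. With control liver 3 left out of these fits, an alternative added after the data were seen, the counts were 6 of 17 against 12.3% and 4 of 17 against 9.58%. Slco1b2 and Slc22a27 were among the members reached in each of these 4 fits, and no member passed after adjustment in any. The log2 fold change of MDL-800 over control was above 0 for 11 of 17 members, with a median of 0.17, against 54.2% of all tested genes and a median of 0.021. That median was -0.013 without control liver 2, and 0.014 with a term for Y-linked reads in the model. Among the 5 tested Slco genes 4 were above 0, and among the 12 tested Slc22a genes 7 were. MDL-800 and control values did not overlap for 1 member, Slc22a15, while they did not overlap for 6.45% of all tested genes.

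The members were then set against the libraries with Y-linked reads, as a description without a test. For 9 of 17 members both of these libraries lay above or both below the other 5, which was so for 32.8% of all tested genes. Slco1b2, Slco1a1, Slc22a5, Slc22a28 and Slc22a30 were above, and Slc22a26, Slc22a27, Slco2a1 and Slc22a4 below. Each group holds 1 such library, so values within each kind of library are given beside the group comparison: MDL-800 liver 2 against control liver 1, and MDL-800 livers 1 and 3 against control livers 2, 3 and 4. Control liver 3, with neither Y-linked nor Xist reads, is in the second kind only because it lacks Y-linked reads. It held A1bg and Sult2a1 at 2579 and 1118 FPKM, the highest of the 7 libraries, as was its sum over the 14 female-biased genes, 6309 FPKM. Not all of these genes were high in it. It held Ntrk2 at 0.121 FPKM, the lowest of the 7 libraries. Cyp2b13 was at 1.02 FPKM in it, against 26.0 to 111 FPKM in MDL-800 livers 1 and 3 and control livers 2 and 4. In a count added after the values were seen, 4 members, Slco1b2, Slc22a15, Slc22a27 and Slc22a29, lay above all control values within both kinds of library, against 9.09% of all tested genes. Slc22a27 and Slc22a29 share part of their sequence, so their reads are not fully separate. Only Slc22a28 lay below them in both, against 5.94% of all tested genes. Without control liver 3, Slco2b1 and Slc22a23 joined the members above, which made 6 against 20.4% of all tested genes, and Slc22a28 was again the 1 below, against 10.3%. Among the 4 libraries then left without Y-linked reads the difference moved from that among all 5 by over 1.5 times, among the 16 members reported, for Slc22a15 (0.23), Slco1a4 (0.28), Slc22a23 (0.29), Slco2b1 (0.30), Slc22a30 (-0.074), Slc22a4 (-0.022) and Slco2a1 (-0.020), and turned to -0.052 for Slco1a1.

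**Figure D2:**
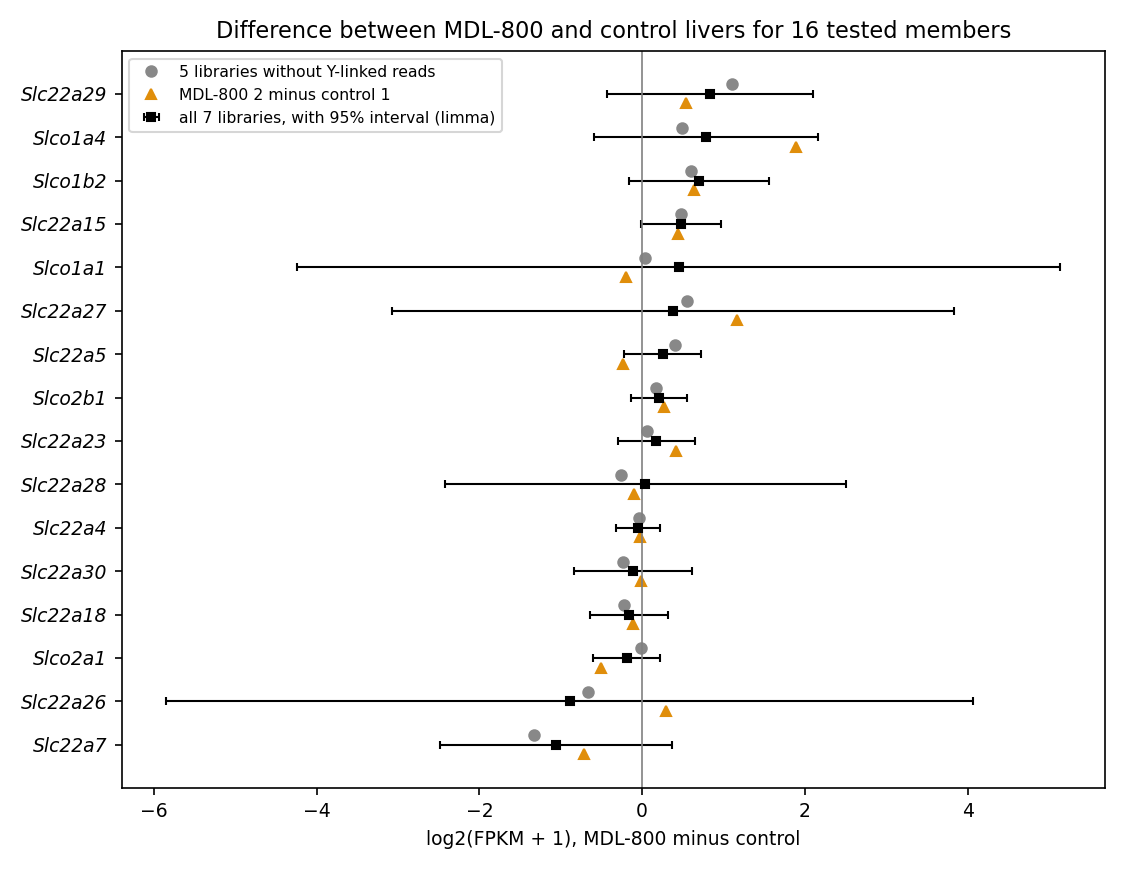
Difference in log2(FPKM + 1) between MDL-800 and control livers for 16 tested members, with squares and bars for all 7 libraries and their 95% interval from limma. Circles give the 5 libraries without Y-linked reads and triangles MDL-800 liver 2 minus control liver 1, and each interval drawn includes 0, from -5.85 to 4.06 for Slc22a26 as the widest.

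Slco1b2 (chromosome 6, 141629518 to 141686646, plus strand, GRCm38) encodes the mouse counterpart of the human OATP1B transporters, which take up bile acids, conjugated bilirubin and statins into hepatocytes. It was at 240.4, 474 and 229.9 FPKM in MDL-800 livers 1, 2 and 3, against 305, 134, 169 and 163 FPKM in control livers 1, 2, 3 and 4. MDL-800 liver 2 held the highest level and control liver 1 the next, and within each kind of library every MDL-800 liver was above every control liver. The groups as a whole overlapped, since control liver 1 exceeded MDL-800 livers 1 and 3. Slco1b2 averaged 315 ± 138 FPKM (SD, n = 3) in MDL-800 livers and 193 ± 76.6 FPKM (SD, n = 4) in control livers. Its log2 fold change was 0.69 (SE 0.36, 95% interval -0.16 to 1.55, limma adjusted p = 0.950), and it was 0.63 between the libraries with Y-linked reads and 0.60 among the other 5. It ranged from 0.36 without MDL-800 liver 2 to 0.94 without control liver 1. With a term for Y-linked reads the value was 0.61 with an SE of 0.13, an unadjusted p of 0.00268 and a limma adjusted p of 0.584 over all genes, above the threshold.

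The promoter of Slco1b2, from 250 bases before to 50 after its start (RefSeq, GRCm38.p6, chr6:141629268-141629567, plus strand), is shown because this gene is the most abundant member. Capitals mark matches to TTCNNNGAA, a motif of the STAT5 family that reads the same on both strands, and to GTTAAT, a part of the HNF1 family motif, searched on both strands.
Slco1b2: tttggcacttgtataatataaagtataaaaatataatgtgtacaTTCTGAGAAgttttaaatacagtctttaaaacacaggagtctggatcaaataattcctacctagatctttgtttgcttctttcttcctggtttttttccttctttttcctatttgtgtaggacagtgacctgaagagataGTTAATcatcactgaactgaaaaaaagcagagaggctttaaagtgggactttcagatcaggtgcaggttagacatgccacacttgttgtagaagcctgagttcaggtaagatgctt
The first match begins at base -206 and the second at base -66 from the start. Of the 17 tested members 15 had a promoter in the RefSeq table, with 17 promoters in all, since Slco2b1 has 3. TTCNNNGAA was found in 5 of the 17 promoters, 2 of Slco2b1 and 1 each of Slco1b2, Slc22a15 and Slc22a26, while 8.30% of the 32851 listed mouse promoters of this length hold it. GTTAAT was found in 2 of the 17, those of Slco1b2 and Slc22a29, against 7.10% of all promoters, and CAAAGTCCA, a motif of the HNF4 family, in 0, against 0.475%. No 2 matches overlapped, and a match is a description of these letters only.

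Slco1a1 and Slco1a4 lie beside Slco1b2 in a chromosome 6 cluster of 6 Slco1 genes that spans 799 kb, and both encode transporters of bile acids, steroid conjugates and drugs. Slco1a1 (chromosome 6, 141907282 to 141946962, minus strand) was at 0.571, 105 and 1.77 FPKM in MDL-800 livers 1, 2 and 3, against 120.4, 0.887, 0.817 and 1.48 FPKM in control livers 1, 2, 3 and 4. Only the livers with Y-linked reads held it above 2 FPKM. Its level was 113 FPKM on average in those livers and 1.10 FPKM in the others. The log2 fold change between MDL-800 and control was 0.45 with an SE of 1.99; it was -0.20 between the libraries with Y-linked reads and 0.032 among the other 5.

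Slco1a4 (chromosome 6, 141805440 to 141856199, minus strand) was at 26.5, 15.9 and 24.6 FPKM in MDL-800 livers 1, 2 and 3, against 3.57, 15.3, 13.1 and 28.4 FPKM in control livers 1, 2, 3 and 4. Control liver 1 held the lowest level and control liver 4 the highest, so the groups overlapped. Slco1a4 had a log2 fold change of 0.79 (SE 0.58, 95% interval -0.59 to 2.16, limma adjusted p = 0.950). It was 1.89 between MDL-800 liver 2 and control liver 1 and 0.49 among the other 5 libraries, where control liver 4 exceeded both MDL-800 livers. Leaving out control liver 1 gave 0.27 and leaving out control liver 4 gave 1.17. Slco1c1, Slco1a5 and Slco1a6, from the same cluster, had 1 or 2 reads each in all 7 libraries together.

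Slco2b1 and Slco2a1 are the other Slco genes above the filter. Slco2b1, which encodes a transporter of steroid sulfates and drugs, was at 28.4, 34.5 and 30.1 FPKM in MDL-800 livers 1, 2 and 3, against 28.6, 23.0, 31.4 and 24.1 FPKM in control livers 1, 2, 3 and 4. The groups overlapped, with a log2 fold change of 0.21 and a 95% interval of -0.14 to 0.56. An exon of the noncoding gene Gm15635 on the opposite strand covers 7.91% of its exon bases, and reads of the 2 genes cannot be told apart there without strand. Slco2a1, the prostaglandin transporter, was at 5.40, 3.13 and 5.46 FPKM in MDL-800 livers 1, 2 and 3, against 4.84, 5.16, 5.42 and 5.90 FPKM in control livers 1, 2, 3 and 4. MDL-800 liver 2 was lowest and control liver 1 next lowest, and the other 5 livers lay between 5.16 and 5.90 FPKM. Its log2 fold change was -0.19, with -0.50 between the libraries with Y-linked reads and -0.012 among the others.

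**Figure D3:**
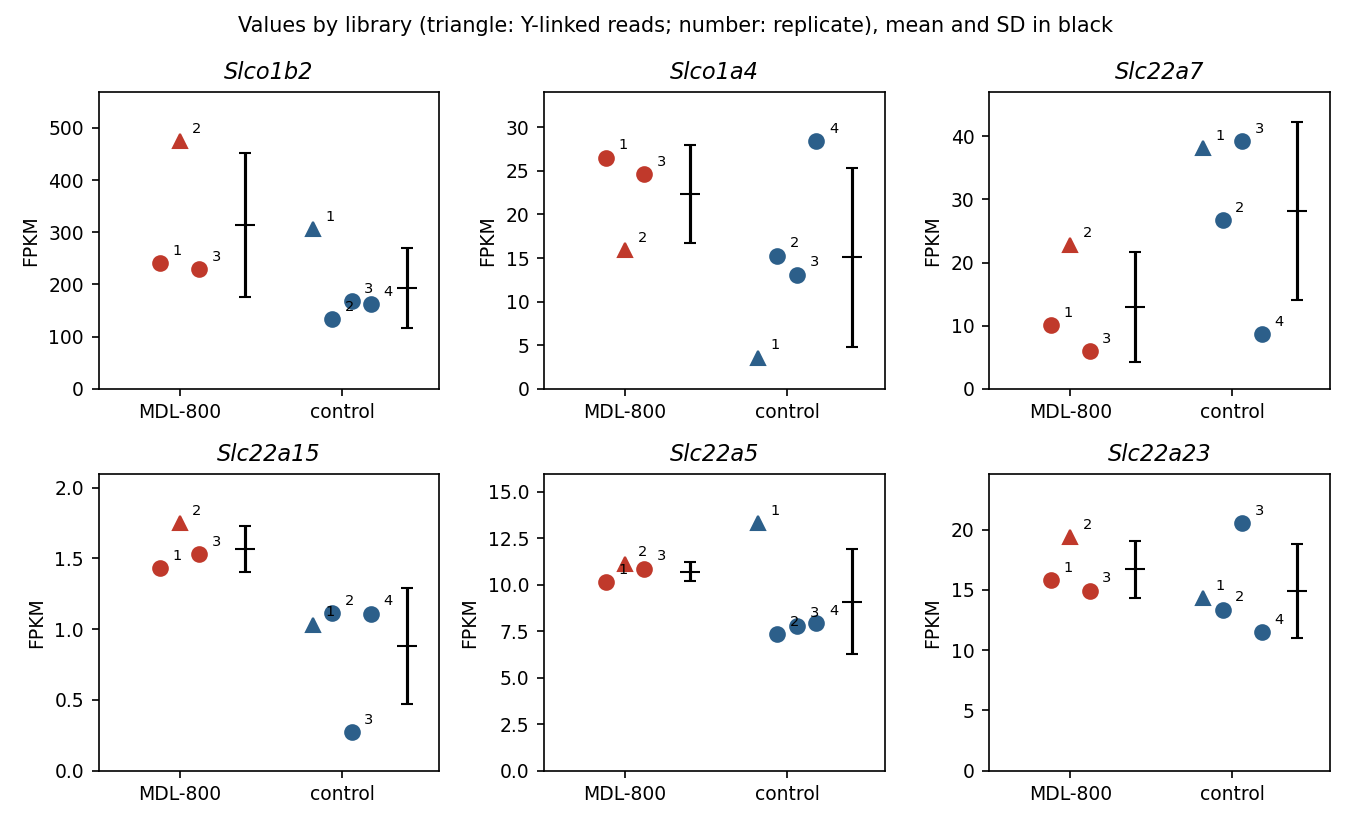
FPKM of 6 members in each library, with MDL-800 left of control, triangles for libraries with Y-linked reads, replicate numbers beside the points, and the mean and SD of each group in black. Slc22a15 is the member whose groups do not overlap, and for Slco1b2 the triangle of each group lies above its circles.

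Slc22a2 and Slc22a3 encode organic cation transporters and lay below the filter. Slc22a2, the kidney transporter OCT2, had 0 reads in the MDL-800 livers and 5, 1, 3 and 0 reads in control livers 1 to 4. Slc22a3, the broadly expressed transporter OCT3, was at 0.718, 1.55 and 0.593 FPKM in MDL-800 livers 1, 2 and 3, against 0.703, 0.535, 0.548 and 0.631 FPKM in control livers 1, 2, 3 and 4. An exon of Plg, the plasminogen gene, covers 9.31% of Slc22a3 exon bases on the opposite strand at a mean of 712.5 FPKM, so Slc22a3 reads are uncertain.

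Slc22a7 (chromosome 17, 46432183 to 46438457, minus strand) encodes OAT2, an organic anion transporter of the hepatocyte's blood-facing membrane. It was at 10.1, 22.8 and 6.02 FPKM in MDL-800 livers 1, 2 and 3, against 38.1, 26.7, 39.2 and 8.72 FPKM in control livers 1, 2, 3 and 4. MDL-800 liver 3 was lowest and control liver 3 highest, and control liver 4 lay below MDL-800 livers 1 and 2, so the groups overlapped. Slc22a7 averaged 13.0 ± 8.73 FPKM (SD, n = 3) in MDL-800 livers and 28.2 ± 14.1 FPKM (SD, n = 4) in control livers, with the lowest log2 fold change of the 17 members, -1.06 (SE 0.60, 95% interval -2.48 to 0.37, limma adjusted p = 0.950). The value was -0.72 between the libraries with Y-linked reads and -1.33 among the other 5. Without control liver 4 it was -1.52 (unadjusted p = 0.0152, limma adjusted p = 0.999), and without MDL-800 liver 3 it was -0.65.

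Slc22a5, Slc22a4 and Slc22a15 encode transporters of carnitine and related zwitterions. Slc22a5, the carnitine transporter OCTN2, was at 10.1, 11.1 and 10.9 FPKM in MDL-800 livers 1, 2 and 3, against 13.3, 7.33, 7.80 and 7.95 FPKM in control livers 1, 2, 3 and 4. Control liver 1 stood above the 3 MDL-800 livers, and control livers 2, 3 and 4 below them. Slc22a5 had a log2 fold change of 0.25 (SE 0.20), with -0.24 between the libraries with Y-linked reads and 0.40 among the others. Without control liver 1 it was 0.43, with an unadjusted p of 0.00401 and a limma adjusted p of 0.532. Of the 50-base words in its longest transcript 27.2% also occur in other genes, mostly in its neighbour Slc22a21, which had 0.323 FPKM on average.

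Slc22a15, described in human cells as a transporter of zwitterions such as carnosine, was at 1.43, 1.75 and 1.53 FPKM in MDL-800 livers 1, 2 and 3, against 1.03, 1.11, 0.273 and 1.11 FPKM in control livers 1, 2, 3 and 4. Every MDL-800 liver was above every control liver, and control liver 3 stood far below the rest on 55 reads. The averages were 1.57 ± 0.163 FPKM (SD, n = 3) in MDL-800 livers and 0.881 ± 0.408 FPKM (SD, n = 4) in control livers. Its log2 fold change was 0.48 (SE 0.21, unadjusted p = 0.0540, limma adjusted p = 0.950), and 0.30 without control liver 3 (adjusted p = 0.824). Slc22a4, the ergothioneine transporter OCTN1, was the lowest tested member, at 1.07, 0.882 and 1.03 FPKM in MDL-800 livers 1, 2 and 3, against 0.918, 1.15, 1.16 and 1.01 FPKM in control livers 1, 2, 3 and 4, from 34 to 57 reads per library. Its log2 fold change was -0.048 with a 95% interval of -0.32 to 0.22.

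Slc22a18 and Slc22a23 are less well characterised members of the family. Slc22a18, an imprinted gene on chromosome 7, was at 49.9, 69.6 and 56.8 FPKM in MDL-800 livers 1, 2 and 3, against 75.0, 51.3, 58.4 and 81.1 FPKM in control livers 1, 2, 3 and 4. Its groups overlapped, with a log2 fold change of -0.16 and a 95% interval of -0.65 to 0.32. Slc22a23, an orphan transporter, was at 15.8, 19.4 and 14.9 FPKM in MDL-800 livers 1, 2 and 3, against 14.3, 13.4, 20.5 and 11.5 FPKM in control livers 1, 2, 3 and 4. Control liver 3 held its highest level and control liver 4 its lowest, and the log2 fold change was 0.17 with a 95% interval of -0.30 to 0.65.

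Slc22a19, Slc22a26, Slc22a27, Slc22a28, Slc22a29 and Slc22a30 form a cluster of 732 kb on chromosome 19 (7673061 to 8405111, GRCm38), an expansion of organic anion transporter genes in rodents. All 6 are on the minus strand. Slc22a19 had 0 reads in all libraries, and the other 5 showed different patterns side by side. Much of their sequence is shared, so reads of these genes are uncertain to that extent. Of the 50-base words in the longest transcript, 53.9% for Slc22a28, 36.3% for Slc22a30, 30.5% for Slc22a27, 30.5% for Slc22a29 and 5.88% for Slc22a26 also occur in other genes. Slc22a28 and Slc22a30 share most with each other, as do Slc22a27 and Slc22a29. The members of each pair are therefore not fully separate observations in the counts above. How far reads of the more abundant gene of a pair enter the level of the other was not tested.

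Slc22a26 (chromosome 19, 7781041 to 7802667) was at 81.2, 0.633 and 75.8 FPKM in MDL-800 livers 1, 2 and 3, against 0.327, 101, 150.3 and 128 FPKM in control livers 1, 2, 3 and 4. The livers with Y-linked reads held 29 reads in MDL-800 liver 2 and 14 in control liver 1, and each other library at least 3921. Among the 5 libraries without Y-linked reads both MDL-800 livers lay below the 3 control livers, with a log2 difference of -0.67 (unadjusted p = 0.0222, limma adjusted p = 0.874 in a fit of those libraries alone). Over all 7 libraries the log2 fold change was -0.89 with an SE of 2.1, and it was 0.98 without MDL-800 liver 2.

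Slc22a27 (chromosome 19, 7864388 to 7966027) was at 45.0, 2.54 and 62.0 FPKM in MDL-800 livers 1, 2 and 3, against 0.577, 35.9, 39.9 and 32.1 FPKM in control livers 1, 2, 3 and 4. It was low in the same livers as Slc22a26, and within each kind of library the MDL-800 livers were above the control livers. The log2 difference was 1.17 between the libraries with Y-linked reads, from 85 and 18 reads, and 0.55 among the other 5. With a term for Y-linked reads it was 0.73 with an SE of 0.18 (unadjusted p = 0.00616, limma adjusted p = 0.600). Over all 7 libraries without that term it was 0.38 with an SE of 1.46.

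The level of Slc22a26 over that of Slc22a27, a ratio chosen after the values were seen, was 1.81 and 1.22 in MDL-800 livers 1 and 3, against 2.82, 3.77 and 4.01 in control livers 2, 3 and 4. Slc22a26 was lower and Slc22a27 higher in these MDL-800 livers than in these control livers, so the ratio could not overlap. Its separation adds no result to those of the single genes. The ratio was 0.249 in MDL-800 liver 2 and 0.568 in control liver 1. Slc22a29 (chromosome 19, 8160165 to 8218900) was at 3.24, 0.850 and 6.27 FPKM in MDL-800 livers 1, 2 and 3, against 0.273, 1.97, 0.653 and 2.48 FPKM in control livers 1, 2, 3 and 4. Control liver 1 was lowest and MDL-800 liver 3 highest, on 9 and 250 reads, and control liver 3 lay below MDL-800 liver 2. Its log2 fold change was 0.83 (SE 0.54, limma adjusted p = 0.950), 0.37 without MDL-800 liver 3 and 1.36 without MDL-800 liver 2 (unadjusted p = 0.0262). With a term for Y-linked reads it was 0.94 (unadjusted p = 0.0257, limma adjusted p = 0.661), and among the 5 libraries without them 1.11 (unadjusted p = 0.0377, limma adjusted p = 0.901).

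Slc22a28 (chromosome 19, 8062209 to 8131982) was at 0.0289, 7.84 and 0 FPKM in MDL-800 livers 1, 2 and 3, against 8.50, 0.231, 0.141 and 0.271 FPKM in control livers 1, 2, 3 and 4. The livers with Y-linked reads held 244 reads in MDL-800 liver 2 and 247 in control liver 1, and the other libraries 0 to 9. The 0 reads of MDL-800 liver 3 allow up to 0.0853 FPKM, taking 3 reads as the limit for counting error. Slc22a30 (chromosome 19, 8335371 to 8405111) was at 41.5, 66.6 and 31.5 FPKM in MDL-800 livers 1, 2 and 3, against 67.2, 39.6, 54.5 and 36.7 FPKM in control livers 1, 2, 3 and 4. Both livers with Y-linked reads were again highest, but all 7 libraries held it, and its lowest level, 31.5 FPKM, was above every level of Slc22a28. The log2 fold change between MDL-800 and control was 0.041 for Slc22a28 and -0.11 for Slc22a30, with SE values of 1.04 and 0.31. Within the libraries with Y-linked reads it was -0.10 for Slc22a28 and -0.013 for Slc22a30, and among the other 5 -0.26 and -0.24. The pooled sign of Slc22a28 thus differs from that within either kind of library, and it was -1.78 with voom.

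The promoters of Slc22a28 (chr19:8131933-8132232, minus strand, RefSeq, GRCm38.p6) and Slc22a30 (chr19:8405056-8405355, minus strand) are shown because these sequences are nearly the same while the levels of the genes are not. They align over 294 bases with 288 identical, no gap and 6 mismatches, which are in capitals.
Slc22a28: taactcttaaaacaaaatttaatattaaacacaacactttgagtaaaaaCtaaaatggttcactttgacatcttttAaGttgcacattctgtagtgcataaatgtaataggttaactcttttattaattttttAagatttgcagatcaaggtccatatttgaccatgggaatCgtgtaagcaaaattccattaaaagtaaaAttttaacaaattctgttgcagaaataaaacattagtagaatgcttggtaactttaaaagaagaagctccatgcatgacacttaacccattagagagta
Slc22a30: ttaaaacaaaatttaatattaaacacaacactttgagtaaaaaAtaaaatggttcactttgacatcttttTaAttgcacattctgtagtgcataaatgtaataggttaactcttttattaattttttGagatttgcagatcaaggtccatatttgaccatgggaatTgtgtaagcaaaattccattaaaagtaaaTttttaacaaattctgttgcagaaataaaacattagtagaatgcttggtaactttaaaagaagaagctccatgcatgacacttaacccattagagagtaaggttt
Slc22a29 shares 81.0% of 263 aligned promoter bases with Slc22a28 and 81.7% of 257 with Slc22a30. The promoter of Slc22a26 (chr19:7802618-7802917, minus strand) is shown for contrast, as the cluster gene with the highest level outside the livers with Y-linked reads, with its match to TTCNNNGAA, which begins at base -141, in capitals.
Slc22a26: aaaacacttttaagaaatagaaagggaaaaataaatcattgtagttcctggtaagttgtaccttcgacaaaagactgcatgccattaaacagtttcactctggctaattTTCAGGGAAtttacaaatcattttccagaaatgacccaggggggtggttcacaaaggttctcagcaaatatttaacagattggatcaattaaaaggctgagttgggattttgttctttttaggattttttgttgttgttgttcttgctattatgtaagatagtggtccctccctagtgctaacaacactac

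**Figure D4:**
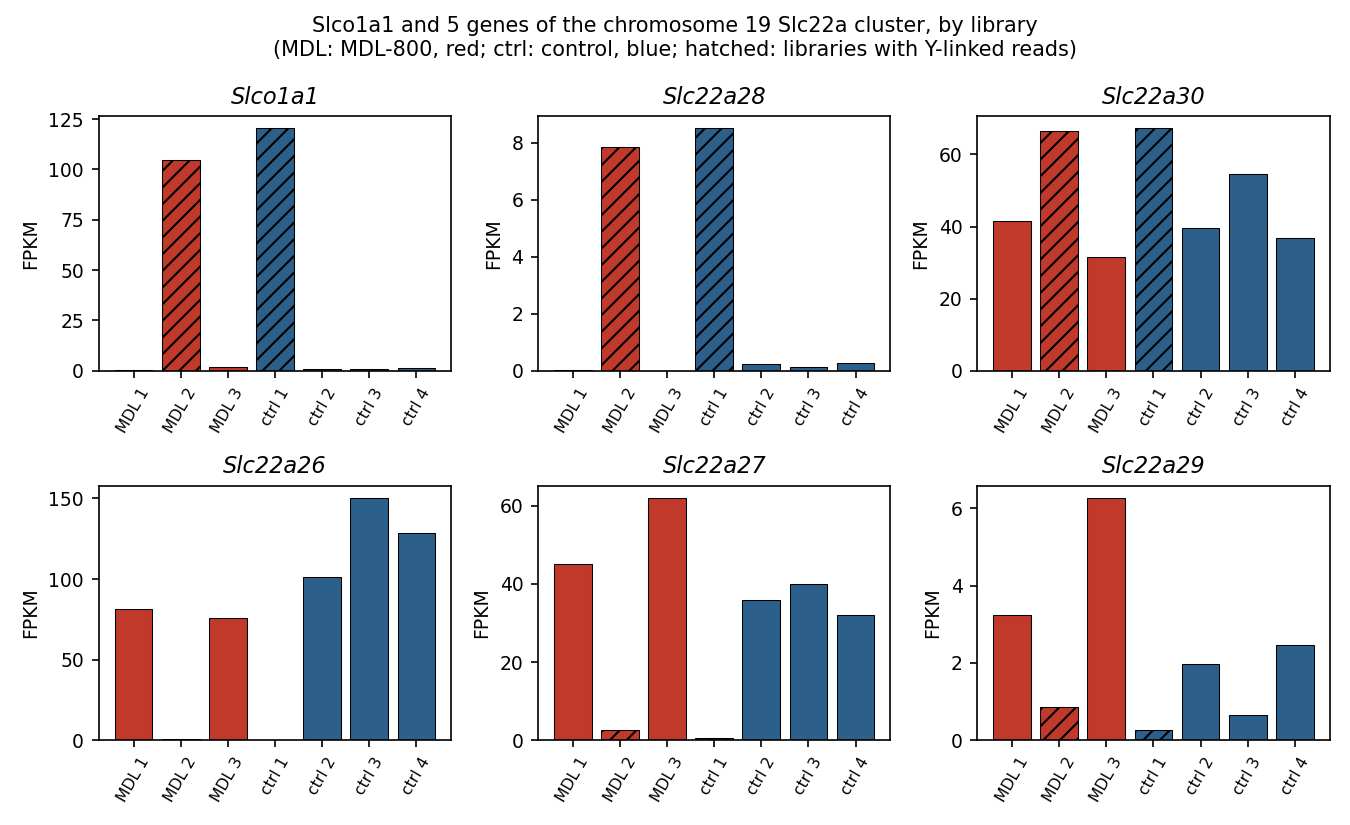
FPKM by library for Slco1a1 and 5 genes of the chromosome 19 cluster, with bars from 0, MDL-800 in red left of control in blue, and hatching for the libraries with Y-linked reads. Slco1a1 and Slc22a28 are high in the hatched bars and near 0 elsewhere, Slc22a30 is present in every library, and Slc22a26 and Slc22a27 are near 0 in the hatched bars.

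The other 22 members had means under 1 FPKM, and the filter fell between Slc22a4 at 1.03 and Slc22a3 at 0.755 FPKM. Slco6c1, Slco6d1, Slc22a13, Slc22a16 and Slc22a19 had 0 reads in every library, which allows at most 0.106 FPKM in any of them. Another 12, among them the kidney transporters Slc22a6, Slc22a8, Slc22a12 and Slc22a2 and the thyroid hormone transporter Slco1c1, had 1 to 10 reads in all libraries together. The others of these 12 are Slc22a14, Slc22a20, Slc22a22, Slco1a5, Slco1a6, Slco4c1 and Slco5a1. The remaining 5, with 36 reads or more, were Slc22a3, Slco3a1, Slc22a17, Slc22a21 and Slco4a1. Slco3a1 was at 0.560, 0.334 and 0.619 FPKM in MDL-800 livers 1, 2 and 3, against 0.594, 1.19, 0.675 and 0.352 FPKM in control livers 1, 2, 3 and 4. Slc22a17 was at 0.115, 0.214 and 0.177 FPKM in MDL-800 livers 1, 2 and 3, against 0.336, 1.21, 0.266 and 0.180 FPKM in control livers 1, 2, 3 and 4. Both were highest in control liver 2, the library with the highest summed macrophage, neutrophil and erythroid markers, and the part of those cells in these values was not tested.

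Of the other genes of hepatic transport, 20 of 23 were tested and 0 passed limma's test after adjustment, with 14 above 0, 6 below and a median of 0.23 (log2 fold change). That stands beside 54.2% above 0 and a median of 0.021 over all tested genes. By role, 2 of 3 uptake genes, 3 of 4 basolateral efflux genes, 7 of 9 canalicular genes and 2 of 4 scaffold genes were above 0. Abcc3, which encodes the basolateral efflux pump MRP3, had the smallest p of the list. It was at 33.6, 43.9 and 44.9 FPKM in MDL-800 livers 1, 2 and 3, against 28.8, 26.6, 12.9 and 16.7 FPKM in control livers 1, 2, 3 and 4. Its groups did not overlap, and the log2 fold change was 0.97 (SE 0.29, unadjusted p = 0.0126, limma adjusted p = 0.950). Pdzk1, a scaffold that anchors transporters in the membrane, was at 15.7, 15.0 and 14.5 FPKM in MDL-800 livers 1, 2 and 3, against 13.7, 10.8, 13.5 and 10.3 FPKM in control livers 1, 2, 3 and 4. Its groups did not overlap either, with a log2 fold change of 0.31 and a limma adjusted p of 0.950. Groups did not overlap for 2 of the 20 genes, against 6.45% of all tested genes. A limma unadjusted p under 0.05 was reached by 1 of the 20, against 4.85% of all tested genes. Abcc2, the canalicular pump MRP2, had a log2 fold change of 0.45 with an SE of 0.23. Slc10a1, the sodium-dependent bile acid carrier NTCP, had 0.17 with an SE of 0.32, and Abcb11, the bile salt export pump, -0.062 with an SE of 0.20.

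**Figure D5:**
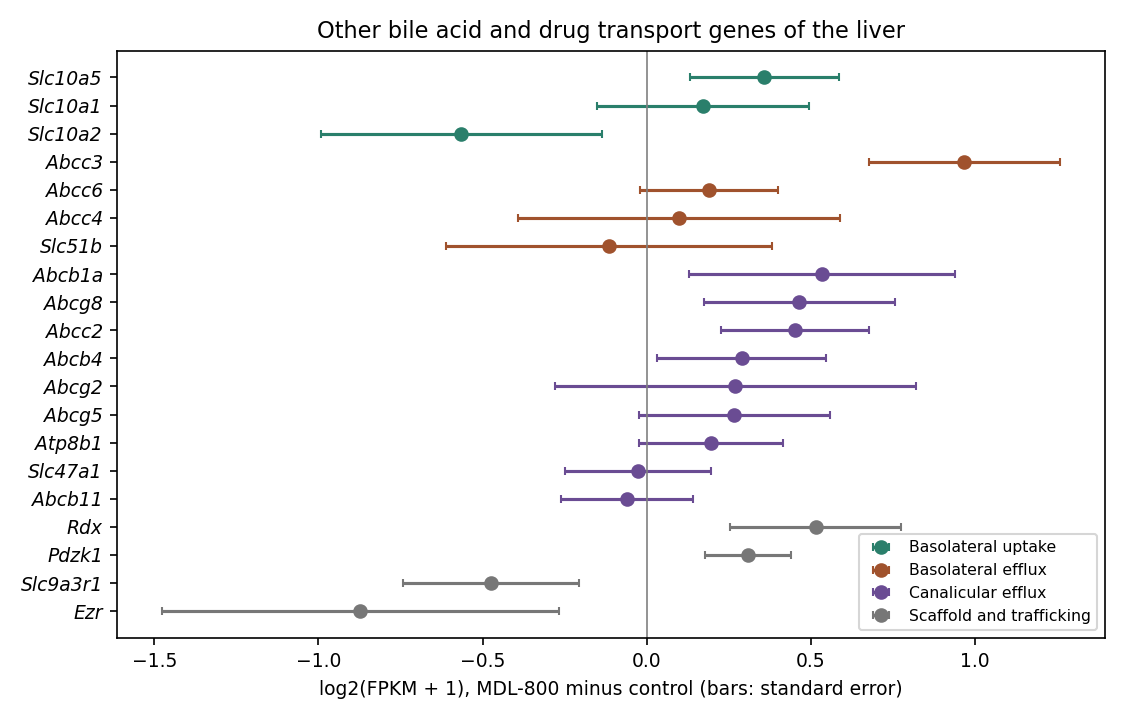
Log2 difference of MDL-800 minus control livers, with its standard error, for 20 other liver transport genes coloured by role. Abcc3 lies furthest to the right at 0.97, and Ezr furthest to the left at -0.87.

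Regulators of these transporters were listed as well, and 12 of 22 lay above 0 (median log2 fold change 0.084), with 0 passing limma's test. Those with the smallest p were Ppara, Foxa2 and Nfe2l2, with log2 fold changes of 1.08, -0.28 and 0.18 and limma adjusted p of 0.950 each. Ppara, a receptor for fatty acids, was the only one of the 22 with an unadjusted p under 0.05, a threshold that 4.85% of all tested genes reached. Bcl6, a repressor known to act on female-predominant liver genes, was at 2.08, 5.82 and 3.50 FPKM in MDL-800 livers 1, 2 and 3, against 17.6, 2.73, 2.32 and 1.92 FPKM in control livers 1, 2, 3 and 4. Control liver 1 held the highest level and MDL-800 liver 2 the next. Cux2, a transcription factor of female mouse liver, was at 2.65, 0.00638 and 3.67 FPKM in MDL-800 livers 1, 2 and 3, against 0.00684, 3.87, 7.59 and 5.37 FPKM in control livers 1, 2, 3 and 4. Cux2 was lowest in the same livers, and whether either gene bears on the Slco and Slc22a levels was not tested. Such a split was not particular to these 2 genes. Both libraries with Y-linked reads lay above the other 5 for 8 of the 22 regulators and below them for 4. In either direction this was so for 32.8% of all tested genes.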

How the data were processed

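Liver RNA of 7 libraries was measured, 3 MDL-800 and 4 control, grouped by the diet label. Per the labels' protocols, a SMARTer low-input kit gave cDNA, which was sheared and made into NEBNext libraries without strand information. The authors deposited 1 table of FPKM per gene. The submitters' processing notes name build mm9 with Bowtie2 2.1.0, TopHat2 2.0.14 and Cufflinks 2.2.1. Which tool counted reads was not given in the sources used here. Coordinates are given as GRCm38, because 53756 of 54409 gene identifiers shared with GENCODE M21, and 38 of the 39 members, have the same chromosome and start.

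Multiplying FPKM by length and dividing by the smallest step of a library returned whole reads (100% of values above 0, tolerance 0.01). Reads carry no molecular identifiers, so limits cover counting error only. Genes averaging 1 FPKM or more were tested on log2(FPKM + 1) with limma 3.58.1 in R 4.3.3 (trend, two-sided, Benjamini-Hochberg over 11394 genes, threshold 0.05), without rescaling. Fold changes on this scale understate those of low genes. Promoters were compared with Biopython 1.88, and plots drawn with matplotlib 3.10.9. The procedure was tested on simulated data without a split of libraries by Y-linked reads, so that run does not cover such a split.

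The members, lists and tests were chosen with earlier results of these data known. Members with a mean of at least 1 FPKM are named with values, except 1 that is not reported here and stays in the counts and sums. Values in every library were set to be given for members among the 10 highest, with an unadjusted p under 0.05, with groups that do not overlap or with both libraries with Y-linked reads outside the others, and are given here for the remaining tested members as well. Of the other lists, the genes with the smallest p are named. Slc10a1, Abcb11, Bcl6, Cux2, Ntrk2 and Cyp2b13 were chosen after their values were seen. Alternatives were a pseudocount of 0.1, no filter, quantile normalization, median scaling, summed reads as denominator, limma voom on recovered reads, a replicate block, a term for Y-linked reads, the 5 libraries without them, and leaving out each library. Control liver 3, with neither Y-linked nor Xist reads, was also left out of the fits by Y-linked reads, after the data were seen.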

Additional observations from a re-analysis of the deposited data

Results flagged for a closer look

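Among 17 members screened within the 4 control livers, 4 had a library set far apart from the other 3. The rule is set to flag about 1 in 20 by chance when libraries are alike. The share of all tested genes flagged in this way was not counted, so the count has no background beside it. Control liver 1 stood apart for 3 of them. It held Slco1a1 at 120.4 FPKM, against 0.817 to 1.48 FPKM in the other control livers, and Slc22a28 at 8.50 FPKM, against 0.141 to 0.271 FPKM. The same library held Slc22a5 at 13.3 FPKM, against 7.33 to 7.95 FPKM. Control liver 1 was the only control liver with Y-linked reads, and their part in these values was not tested. For 32.8% of all tested genes both libraries with such reads lay above or both below the others. Control liver 3 held Slc22a15 at 0.273 FPKM, against 1.03 to 1.11 FPKM in the other control livers, on 55 reads.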

How the results depend on the processing

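Under all 18 alternatives, 2 of them chosen after seeing the data, 0 members passed an adjusted p of 0.05, and the lowest adjusted p of any member was 0.308, with a term for Y-linked reads and control liver 3 left out. Over all genes 0 passed too, with voom included, except 1 gene without MDL-800 liver 1 and 1 without control liver 1. An unadjusted p under 0.05 was reached by 553 genes, 368 of them higher in MDL-800 livers, by 776 (630 higher) with summed reads as denominator, 663 with voom, 1083 with no filter, 1404 with a term for Y-linked reads and control liver 3 left out, 1091 in the 4 libraries with Xist and no Y-linked reads, and 274 to 948 with single libraries left out. The median log2 fold change of the members, 0.17, was 0.0066 with no filter on low values, where 18 of 34 members were above 0, 0.014 with a term for Y-linked reads and 0.032 in the 5 libraries without them. Leaving out single libraries gave medians from -0.013 to 0.23 and 8 to 11 members above 0. The log2 fold change of Slc22a28, 0.041, was -0.60 with a pseudocount of 0.1, -1.78 with voom, -0.18 with the replicate block, -0.21 with the Y-linked term and -0.26 in the 5 libraries, and without control liver 3 in the last pair of fits -0.24 and -0.30. That of Slco1a1, 0.45, was -0.035 with the Y-linked term, and -0.10 and -0.052 in that pair of fits. Leaving out single libraries turned the sign of 6 of the 16 members reported: Slc22a26 ranged from -2.53 to 0.98, Slc22a27 from -0.76 to 1.68, Slc22a28 from -1.0 to 0.78, Slc22a30 from -0.40 to 0.13, Slco1a1 from -1.44 to 1.92 and Slco2a1 from -0.30 to 0.026. The cause was not tested. The other 10 members kept their direction under every alternative. Same-numbered libraries did not deviate together (correlations of -0.59, -0.55 and 0.057 for replicates 1, 2 and 3). For replicates 1 and 2 only 1 library of each number held Y-linked reads, so this check cannot decide whether the numbers pair the samples. The replicate block gave a member median of 0.049 and 192 genes at a limma unadjusted p under 0.05, against 553 without it. Replicate 4 is in the control group only, so with this block the member fold changes equal those without control liver 4. With the Y-linked term the SE was 0.23 for Slc22a26, 0.22 for Slco1a1, 0.18 for Slc22a27 and 0.12 for Slc22a28, against 2.1, 1.99, 1.46 and 1.04 without it.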
